A study of Mus musculus with 6 samples.

Results

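Eicosanoid and specialized pro-resolving lipid synthesis was examined in peritoneal macrophages (PMs) through 10 enzyme genes, Alox15, Alox5, Alox5ap, Ptgs1, Ptgs2, Ptgis, Ptges, Ltc4s, Lta4h and Hpgds. The genes were chosen by name from what their products do, with earlier results of these data known. They are 10 of the 32875 genes that had a record in the count tables. RNA-seq libraries came from sorted F4/80+ CD11b+ PMs of 6 female mice (1 library each). Of these, 3 were controls, [NZW x BALB/c]F1 animals (strain New Zealand white/BALB/c) that are not prone to lupus, aged 33, 33 and 30 weeks. The 3 diseased-BWF1 mice were [NZB x NZW]F1 animals (strain New Zealand black/New Zealand white, titled Lupic), a spontaneous model of systemic lupus erythematosus (SLE), and were 31, 31 and 34 weeks old. They had been classed as diseased by high anti-dsDNA antibodies and severe proteinuria. Both crosses have a New Zealand white parent and the same H2 haplotype, but the other parental strain differs, so strain and disease cannot be told apart. In bulk RNA of a sorted population, fewer cells of a type and less RNA per cell cannot be told apart either.

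Eicosanoids are oxygenated lipids made mainly from arachidonic acid, which phospholipases release from membranes. Cyclooxygenases turn it into the unstable intermediate from which separate synthases form prostaglandin E2 (PGE2), prostacyclin, thromboxane and prostaglandin D2, while lipoxygenases start the routes to leukotrienes, lipoxins and, from omega-3 fatty acids, resolvins. Resident PMs of the mouse are known for a high level of 12/15-lipoxygenase and for making prostacyclin and leukotriene C4 when stimulated. In what follows, "normalized counts" are the reads assigned to a gene divided by DESeq2's size factor of the library, errors are SDs over 3 mice, and the log2 fold change is that of diseased-BWF1 over control mice from edgeR's quasi-likelihood test. A gene was called at a Benjamini-Hochberg adjusted p under 0.05 over the 10502 tested genes together with a fold change of at least 1.5.

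Of the 10 enzymes, Ptges, the inducible microsomal prostaglandin E synthase, was the only gene called, and it was higher in PMs from diseased-BWF1 mice. None was called lower. Ptgs2 and Hpgds were under the filter on low counts, so 8 of the 10 were tested. The called share of 1 in 8 stands beside 1.22% of all tested genes called in either direction and 0.4% called higher. As the list was chosen with earlier results known, these shares are a description. With DESeq2 Ptges was again the only one of the 10 called, beside 2.97% of genes with an adjusted p. Among the 8 genes 3 had a log2 fold change above 0 and 5 below 0, with a median of -0.03, beside a median of 0.01 over all tested genes. An unadjusted p under 0.05 was found for 2 of the 8, Ptgs1 and Ptges, and for 13.2% of all tested genes. The same 2 genes were those whose groups did not overlap, and 20.8% of all tested genes had such groups.

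Total counts per library were 3629901 to 5003360, of which 89.1% to 93.0% fell on genes, and 3 counts, taken as the smallest amount that can be told from 0, were worth 0.652 to 0.889 CPM on genes. Only counting error enters that limit, and reads copied by PCR are not independent molecules, whereas the 95% intervals of fold changes come from the edgeR fit and include the spread between mice. The log-scale correlation of libraries was 0.928 to 0.961 among control mice, 0.944 to 0.951 withamong diseased-BWF1 animals and 0.899 to 0.939 across groups, and no pair of libraries was a duplicate. The labelled cell type could be checked against its markers. All 9 macrophage markers were tested and 0 were called, and their summed normalized counts were 145600 to 194700 in control mice and 122200 to 141800 in diseased-BWF1 mice, led by Lyz2. Of 61 marker genes of other cell types, 51 had at most 10 counts in every library.

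**Figure D1:**
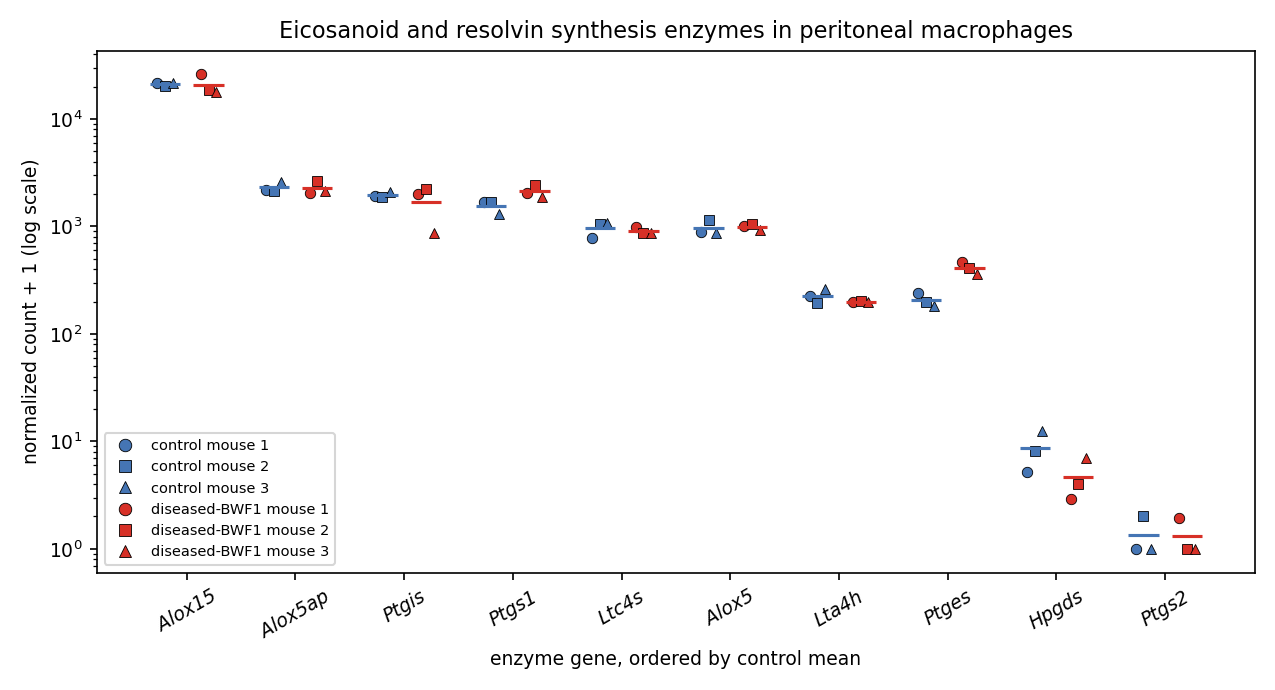
Normalized counts plus 1 (log axis) of the 10 enzyme genes in each of the 6 libraries, ordered by the control mean, with blue symbols for control mice, red symbols for diseased-BWF1 mice, a symbol shape for each mouse number and a bar at the mean of each group. Alox15 lies between 17740 and 25900 normalized counts in every mouse, Ptgs2 lies near 0 in every mouse, and the groups are apart for Ptges and Ptgs1.

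The enzymes covered a wide range of levels, so the levels were set side by side per length, as CPM on genes divided by the length of the leading transcript in kilobases (lowest, median and highest of the 6 mice). Alox15 headed the order at 1950, 2240 and 2920. Alox5ap followed at 435, 453 and 552, and Ltc4s at 316, 383 and 426. These 3 genes did not overlap with each other or with any lower gene. Ptgis (108, 246 and 276) and Ptgs1 (118, 164 and 223) overlapped, as did Lta4h (24.2, 26.2 and 33.3) and Ptges (12.7, 21.7 and 34.5), and Alox5 lay between the pairs at 79.9, 91.9 and 103. Hpgds had at most 0.852 and Ptgs2 at most 0.059. The position of Ptges in this order differed between the groups, with a median level of 13.7 in control and 29.3 in diseased-BWF1 mice, under and over the median level of Lta4h in the same mice (29.0 and 26.1). Alox15 alone held 65.5% to 74.7% of the summed counts of the 10 enzymes.

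The lipoxygenase route begins with Alox15, which encodes 12/15-lipoxygenase, an enzyme that oxygenates arachidonic acid and omega-3 fatty acids and takes part in lipoxin and resolvin synthesis. Alox15 (RefSeq GRCm38.p6, chr11:70344147-70390538) was among the most abundant transcripts of these cells, with 0.469% to 0.703% of all counts on genes and a rank between 9 and 12 in every library. Its normalized counts were 21590, 20260 and 21690 in control mice and 25900, 18620 and 17740 in diseased-BWF1 mice. The diseased-BWF1 mice thus held both the highest and the lowest value, and the groups overlapped. The means were 21180 ± 794.8 and 20750 ± 4478, and the log2 fold change was -0.03 (95% interval -0.47 to 0.41, edgeR adjusted p = 0.967). The interval leaves room for a level 1.39-fold lower or 1.33-fold higher in diseased-BWF1 mice. The sign of this difference depended on single mice, with 0.05 without diseased-BWF1 mouse 2 and 0.07 without diseased-BWF1 mouse 3. Of its counts 99.6% lay on 1 curated transcript record.

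Alox5 and Alox5ap work as a pair, since 5-lipoxygenase, which starts leukotriene synthesis and also takes part in the synthesis of resolvins, receives arachidonic acid through the membrane protein FLAP that Alox5ap encodes. Alox5 (chr6:116410071-116461178) had 892, 1135 and 873.9 normalized counts in control mice and 1010, 1055 and 923.8 among diseased-BWF1 animals. The log2 fold change was 0.04 (95% interval -0.31 to 0.39, edgeR adjusted p = 0.937). All 3 diseased-BWF1 mice lay within the range of the control mice. Alox5ap (chr5:149265004-149288153) had 2174, 2132 and 2609 in control mice and 2057, 2633 and 2129 among diseased-BWF1 animals, that is, a log2 fold change of -0.02 (95% interval -0.40 to 0.35, edgeR adjusted p = 0.970). The groups overlapped over nearly their whole range. The ratio of Alox15 to Alox5 counts, which needs no scaling between libraries, was 24.2, 17.9 and 24.8 in control mice and 25.6, 17.6 and 19.2 in diseased-BWF1 mice, and that of Alox5ap to Alox5 was 2.44, 1.88 and 2.99 against 2.04, 2.50 and 2.30. Both ratios overlapped between the groups. For Alox5 and Alox5ap, too, leaving out single mice turned the sign of the small difference, to -0.02 for Alox5 without control mouse 1 or 3, and to 0.08, 0.04 and 0.03 for Alox5ap without control mouse 3, diseased-BWF1 mouse 1 and diseased-BWF1 mouse 3.

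Downstream of 5-lipoxygenase, Ltc4s makes leukotriene C4, the first of the cysteinyl leukotrienes, and Lta4h makes the neutrophil attractant leukotriene B4. Ltc4s (chr11:50236461-50238532) had 781.1, 1055 and 1071 normalized counts in control mice and 978.2, 862.8 and 875.4 among diseased-BWF1 animals. The log2 fold change was -0.10 (95% interval -0.48 to 0.28, edgeR adjusted p = 0.837), and every diseased-BWF1 mouse lay within the control range. Lta4h (chr10:93453396-93484896) had 224.2, 192.4 and 261.8 normalized counts in control mice and 196.4, 201.5 and 195.7 among diseased-BWF1 animals. Its log2 fold change was -0.19 (95% interval -0.53 to 0.14, edgeR adjusted p = 0.622), again with all diseased-BWF1 mice inside the control range. Of the 5 lipoxygenase-route genes, therefore, none passed the test. A p that misses the threshold does not show that the groups had the same level, and the intervals give the sizes that the data leave possible.

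Cyclooxygenases are the entry to the prostanoids. Ptgs1 encodes COX-1, the constitutive form, and Ptgs2 encodes COX-2, which is induced by inflammatory stimuli in many macrophages. Ptgs1 (chr2:36216742-36258593) had 1701, 1671 and 1308 normalized counts in control mice and 2034, 2433 and 1868 in diseased-BWF1 mice. The lowest diseased-BWF1 value exceeded the highest control value (p = 0.1 in a two-sided exact permutation test, which with 3 mice a group can give no smaller p). The means were 1560 ± 218.7 and 2111 ± 290.2, and the log2 fold change was 0.43 (SE 0.17, 95% interval 0.04 to 0.83). The unadjusted p of 0.0351 became 0.329 after Benjamini-Hochberg adjustment with edgeR's quasi-likelihood test, and 0.261 with DESeq2, so Ptgs1 was not called. With each mouse left out in turn its log2 fold change was 0.33 to 0.52. Its counts were spread over 6 transcript records, of which the leading curated record held 83.3% in control and 88.2% in diseased-BWF1 mice.

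Ptgs2 (chr1:150100031-150108234) was at or near 0 in every library, with raw counts of 0, 1 and 0 in control mice and 1, 0 and 0 in diseased-BWF1 mice. Both groups lay under the floor of 3 counts per library, so no fold change was given, and a difference was not detectable at this depth. COX-1 was thus the cyclooxygenase whose transcript was measurable in both groups.

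Ptges (chr2:30889471-30931020) encodes microsomal prostaglandin E synthase-1, which turns the cyclooxygenase product into PGE2. It had 239.1, 195.5 and 179.1 normalized counts in control mice and 463.6, 407.1 and 361.0 in diseased-BWF1 mice. Each of the 3 diseased-BWF1 mice lay above each control mouse, with a gap between 239.1 and 361.0 (two-sided exact permutation p = 0.1, the smallest possible). Ptges rose from a mean of 204.6 ± 31.01 to 410.6 ± 51.38, a log2 fold change of 1.00 (SE 0.16, 95% interval 0.63 to 1.37), or 2.00-fold with an interval of 1.54 to 2.59. The adjusted p was 0.0389 with edgeR's quasi-likelihood test and 0.000123 with DESeq2, whose log2 fold change was also 1.00. The raw counts behind these values were 289, 190 and 156 in control mice and 491, 402 and 358 in diseased-BWF1 mice, all on 1 curated record.

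The size of the Ptges difference moved little when a mouse was left out, with log2 fold changes of 0.90 to 1.12, but the gene was called in 0 of those 6 comparisons, whose adjusted p was 0.0757 to 0.161 with edgeR. It also missed the threshold with the replicate number as a block, with age as a covariate and with curated or single records, while its unadjusted p over all settings that lost the call was 0.000289 to 0.00253. The annotation places a processed pseudogene, Gm13400, inside Ptges on the same strand, and 0% of the 75-base stretches of Ptges transcripts occur in another annotated gene.

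Ptges was also compared with other prostanoid genes within each library, pairs that were chosen after their values had been seen and that are given as a description. The ratio of Ptges to Ptgs1 counts was 0.141, 0.117 and 0.137 in control mice and 0.228, 0.167 and 0.193 in diseased-BWF1 mice. The ratio of Ptges to Tbxas1 was 0.413, 0.253 and 0.257 against 0.722, 0.709 and 0.506. In both ratios all 3 diseased-BWF1 mice lay above all control mice. Ptgs1 and Tbxas1 had smaller log2 fold changes (0.43 and -0.09) than Ptges, so these ratios restate the Ptges difference and are no separate support for it. The other genes that can form PGE2 had smaller differences that were not called. Ptges2, a membrane-associated form, had 28.96 to 38.06 normalized counts over the 6 mice and a log2 fold change of -0.16 (95% interval -0.67 to 0.36, edgeR adjusted p = 0.807). Ptges3, the cytosolic form and HSP90 co-chaperone p23, had 350.8, 326.1 and 531.7 against 441.0, 437.5 and 434.7, a log2 fold change of 0.12 (95% interval -0.34 to 0.58, edgeR adjusted p = 0.844).

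Lists of genes outside the pathway were also read. The summed normalized counts of 5 markers of monocytes and small peritoneal macrophages were 32.15 to 83.57 in control mice and 90.13 to 230.4 in diseased-BWF1 mice. These sums were apart, with higher values in diseased-BWF1 mice. Irf4 had the most, with groups that overlapped and a log2 fold change of 1.32 (edgeR adjusted p = 0.314). Of the 2 tested markers, 2 had a log2 fold change above 0 and 0 were called. The summed counts of 10 immediate early genes, which rise quickly when cells are handled or stimulated, were 2850 to 3483 in control and 3475 to 9362 in diseased-BWF1 mice. These sums overlapped slightly, as 3475 lay just under 3483, and the groups of Dusp1, the most abundant gene, overlapped too. The groups of Fos, Fosb, Junb, Ier2 and Nr4a1 did not overlap, with higher values in diseased-BWF1 mice. Those of the other listed genes overlapped. Among all tested genes 20.8% had groups that did not overlap. Of the 9 tested immediate early genes 8 had a log2 fold change above 0 and 0 were called with edgeR. DESeq2 called 6 of the 10 listed genes higher, namely Fos, Fosb, Junb, Ier2, Nr4a1 and Zfp36, and Fosb was under the edgeR filter. B cell markers summed to 20.57 to 27.31 in control and 7.06 to 14.18 among diseased-BWF1 animals. Those sums and the macrophage sums given before were apart, with lower values in diseased-BWF1 mice. The macrophage sum was led by Lyz2, and 3 of the 9 macrophage markers had a log2 fold change above 0. Among these markers, the groups of Lyz2, Icam2, Timd4 and Adgre1 did not overlap, with lower values in diseased-BWF1 mice. Their log2 fold changes were -0.46, -0.55, -0.53 and -0.17, and the groups of the other macrophage markers overlapped. Icam2, Timd4 and Adgre1 are named after their values had been seen. What part these lists have in the Ptges result, or in that of Hpgd given later, was not tested.

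The promoters of the cyclooxygenase genes and of Ptges are shown because they serve a constitutive gene, an inducible gene that had almost no reads here, and the enzyme gene that was higher in diseased-BWF1 mice. Each is 300 bases of RefSeq sequence (GRCm38.p6, 250 bases before to 50 after a gene start), written 5′ to 3′ on the gene's strand, with capitals for GGGCGG (the GC box bound by Sp1-type factors), CGTCA (the core of a cyclic AMP response element) and CACGTG (an E-box), searched on both strands. Ptgs1 is at chr2:36230176-36230475 on the plus strand, Ptgs2 at chr1:150099781-150100080 on the plus strand and Ptges at chr2:30903248-30903547 on the minus strand. The Ptgs1 and Ptges windows lie inside the gene spans given before, and the sequence at the upstream ends of those spans is not shown.
Ptgs1: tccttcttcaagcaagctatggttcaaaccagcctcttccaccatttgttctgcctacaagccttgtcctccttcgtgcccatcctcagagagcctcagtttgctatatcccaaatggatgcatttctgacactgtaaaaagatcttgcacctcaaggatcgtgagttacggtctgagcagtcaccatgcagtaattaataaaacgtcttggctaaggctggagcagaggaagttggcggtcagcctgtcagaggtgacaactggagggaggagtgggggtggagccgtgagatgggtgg
Ptgs2: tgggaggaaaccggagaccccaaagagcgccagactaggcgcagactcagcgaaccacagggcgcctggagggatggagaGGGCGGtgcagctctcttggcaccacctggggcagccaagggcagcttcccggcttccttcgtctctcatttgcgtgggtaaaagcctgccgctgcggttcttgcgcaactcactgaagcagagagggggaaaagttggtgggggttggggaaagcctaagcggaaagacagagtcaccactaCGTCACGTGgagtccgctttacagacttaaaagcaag
Ptges: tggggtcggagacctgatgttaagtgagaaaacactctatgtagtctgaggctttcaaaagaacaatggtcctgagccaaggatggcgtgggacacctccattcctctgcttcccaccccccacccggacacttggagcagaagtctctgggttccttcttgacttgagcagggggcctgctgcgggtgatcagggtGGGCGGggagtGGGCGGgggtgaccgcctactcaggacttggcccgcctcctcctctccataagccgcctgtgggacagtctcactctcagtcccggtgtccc
The Ptges window held 2 copies of GGGCGG and neither of the other motifs. The Ptgs2 window held 1 copy of each motif, with CGTCA and CACGTG sharing bases in a single run, and the Ptgs1 window held none. Among the 32851 promoter windows of the same length, 35.7% held GGGCGG, 20.8% held CGTCA and 7.15% held CACGTG on either strand. These matches describe letters in the windows and say nothing of which factors were bound in the PMs.

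Ptgis (chr2:167203194-167252150) encodes prostacyclin synthase. It had 1911, 1859 and 2083 normalized counts in control mice and 2015, 2217 and 861.3 in diseased-BWF1 mice. Diseased-BWF1 mouse 3 lay far below the other 5 libraries, which ranged from 1859 to 2217. The log2 fold change was -0.20 (SE 0.33, 95% interval -0.97 to 0.57, edgeR adjusted p = 0.839), and without that mouse it was 0.12. The standard error of Ptgis was the largest among the 8 tested enzymes. The ratio of Ptgis to Ptgs1 counts, given as a description, was 1.12, 1.11 and 1.59 in control mice and 0.991, 0.911 and 0.461 in diseased-BWF1 mice. All diseased-BWF1 ratios lay below all control ratios. These counts are not corrected for transcript length, so a ratio of 1 does not mark equal levels. Per length, Ptgis lay above Ptgs1 in diseased-BWF1 mice 1 and 2 (260 against 193 and 276 against 223) and below it in mouse 3 (108 against 172).

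Hpgds (chr6:65117293-65144981), the hematopoietic prostaglandin D synthase known from mast cells and other blood-derived cells, had raw counts of 5, 7 and 10 in control mice and 2, 3 and 6 in diseased-BWF1 mice. It had too few reads to pass the filter. In an unfiltered fit the log2 fold change was -1.03 (SE 0.67, 95% interval -2.47 to 0.41, edgeR adjusted p = 0.706), an interval wide enough to hold both a large decrease and an increase, and the groups overlapped. Of the 8 listed mast cell markers, 4 (Mcpt4, Tpsb2, Kit and Fcer1a) had 0 counts in all libraries, and 7 had at most 10 counts in any library. The remaining marker, Hdc, had 48.41 to 132.4 normalized counts. The second prostaglandin D synthase gene, Ptgds, also had 0 counts in all libraries. Thromboxane synthase, encoded by Tbxas1, had 579.2, 772.6 and 697.1 normalized counts in control mice and 642.1, 574.2 and 714.0 in diseased-BWF1 mice, with a log2 fold change of -0.09 (95% interval -0.45 to 0.27, edgeR adjusted p = 0.852) and overlapping groups.

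**Figure D2:**
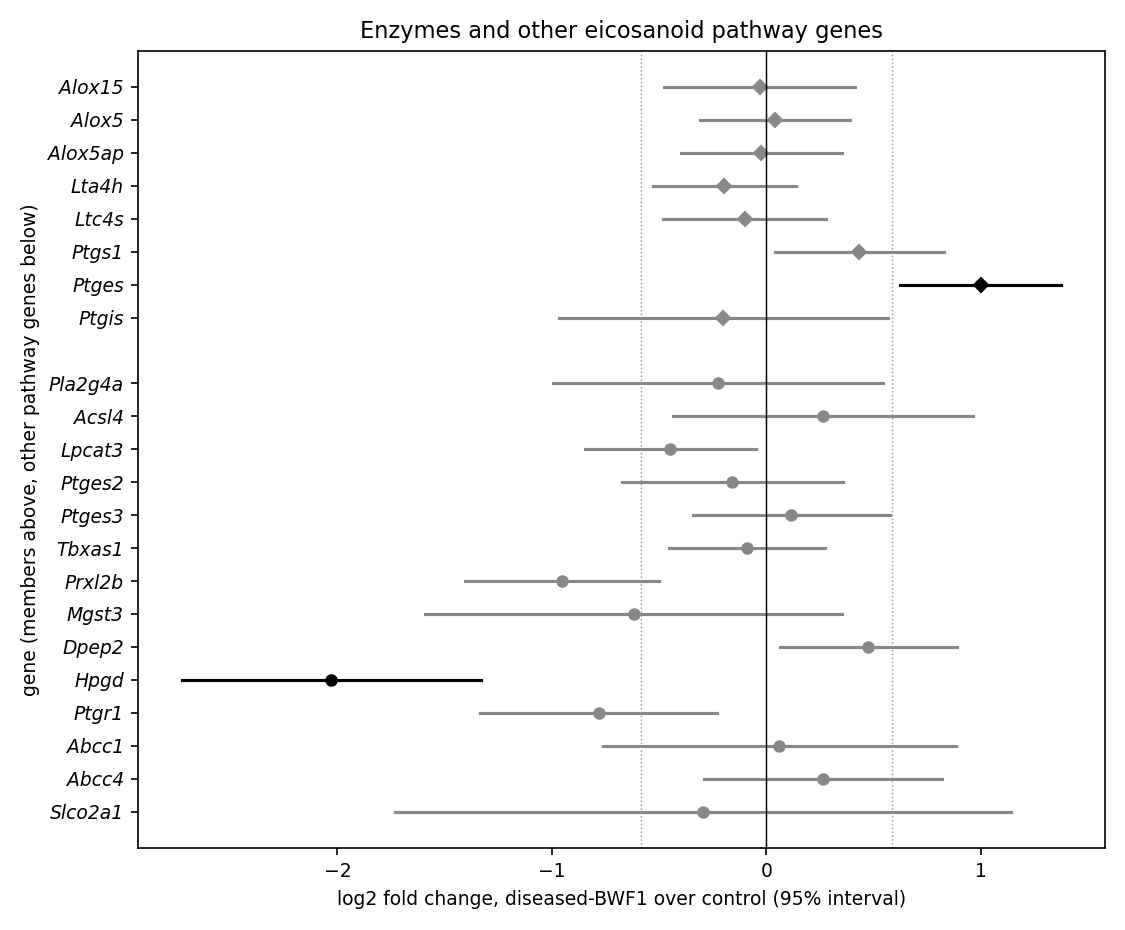
Log2 fold change of diseased-BWF1 over control mice with its 95% interval (edgeR) for the 8 tested enzymes (diamonds, above) and 14 other pathway genes named by role (circles, below), with black marks for called genes, grey marks for the rest and dotted lines at 1.5-fold in each direction. Ptges at 1.00 and Hpgd at -2.03 are the called genes, and most other intervals include 0.

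The synthesis enzymes were set against 70 other genes of eicosanoid metabolism, covering release of arachidonic acid, other oxygenases and synthases, inactivation, transport and receptors. Of these 38 passed the filter, 0 were called higher and 1 was called lower, beside 0.4% and 0.819% of all tested genes. The gene called lower was Hpgd, which encodes 15-hydroxyprostaglandin dehydrogenase, the enzyme that starts the breakdown of PGE2 and other prostaglandins and also oxidizes some lipoxins and resolvins. Among the 38 genes 12 had a log2 fold change above 0 and 26 below 0, with a median of -0.14 beside 0.01 over all tested genes. With DESeq2, which called 1.02% of genes higher and 1.95% lower, 0 pathway genes were called higher and 2 lower, Hpgd and Prxl2b. Groups did not overlap for 15 of the 38, or 39.5%, beside 20.8% of all tested genes, with 5 of the 15 higher and 10 lower in diseased-BWF1 mice. An unadjusted p under 0.05 was found for 9, or 23.7%, beside 13.2% of all tested genes.

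Hpgd (chr8:56294552-56321046) had 190.3, 121.4 and 194.1 normalized counts in control mice and 28.33, 56.71 and 39.33 in diseased-BWF1 mice. The highest diseased-BWF1 value was below the lowest control value (two-sided exact permutation p = 0.1, the smallest possible). Hpgd fell from a mean of 168.6 ± 40.92 to 41.46 ± 14.31, a log2 fold change of -2.03 (SE 0.30, 95% interval -2.72 to -1.33), or 4.08-fold lower with an interval of 2.52 to 6.60. The adjusted p was 0.0304 with edgeR's quasi-likelihood test and 1.475e-06 with DESeq2. Leaving out each mouse in turn gave log2 fold changes of -2.32 to -1.82, and only the comparison without diseased-BWF1 mouse 2, 1 of 6, called the gene. The annotation overlaps Hpgd with Gm45540, an unclassified gene on the same strand.

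Because Ptges forms PGE2 and Hpgd begins its breakdown, the counts of the 2 genes were also divided within each library, a ratio chosen after both values were known. There were 1.26, 1.61 and 0.923 Ptges counts for each Hpgd count in control mice and 16.4, 7.18 and 9.18 in diseased-BWF1 mice. The lowest ratio in diseased-BWF1 mice, 7.18, lay above the highest in control mice, 1.61. These are transcript counts, and no prostaglandin was measured in the deposited data.

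**Figure D3:**
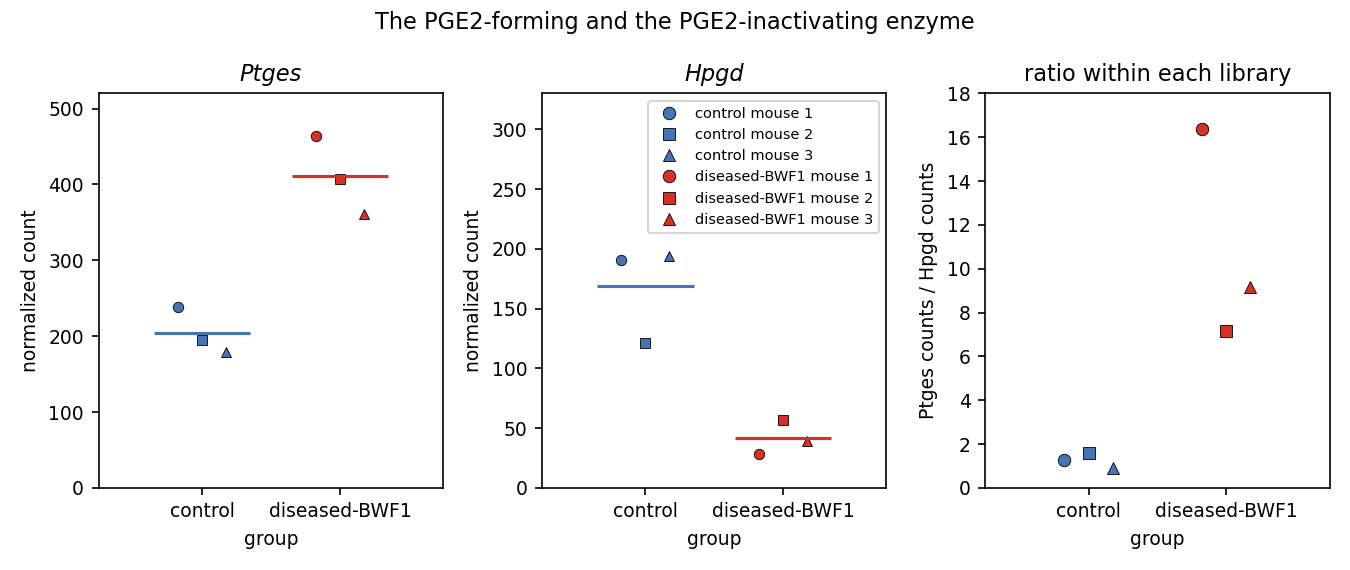
Normalized counts of Ptges (left) and Hpgd (middle), and the number of Ptges counts per Hpgd count within each library (right), for each control mouse (blue) and diseased-BWF1 mouse (red), with bars at the group means in the first panels. Ptges spans 179.1 to 239.1 in control and 361.0 to 463.6 in diseased-BWF1 mice, Hpgd spans 121.4 to 194.1 and 28.33 to 56.71, and the ratio spans 0.923 to 1.61 and 7.18 to 16.4.

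Of the other genes for inactivation, 5 of 7 in the list including Hpgd were tested, and all 5 had a log2 fold change below 0, with a median of -0.65, but only Hpgd was called. Ptgr1, which encodes prostaglandin reductase 1 and acts after Hpgd in the breakdown of prostaglandins and on leukotriene B4, had 109.2, 89.50 and 105.6 normalized counts in control mice and 63.26, 40.51 and 73.62 in diseased-BWF1 mice. Its groups did not overlap, and its log2 fold change was -0.78 (95% interval -1.33 to -0.23, edgeR adjusted p = 0.208). Cyp4f18, a leukotriene B4 hydroxylase, had 2 counts in 1 control library and 0 in the others. Prxl2b, which encodes prostamide/prostaglandin F synthase, had 144.8, 153.3 and 102.2 in control mice and 65.15, 65.83 and 76.65 among diseased-BWF1 animals, that is, a log2 fold change of -0.95 (SE 0.19). Its adjusted p was 0.0744 with edgeR and 0.0207 with DESeq2, so that Prxl2b was called with DESeq2 and not with edgeR. It overlaps Mmel1 on the opposite strand.

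Release of arachidonic acid precedes all of these steps, and 10 of its 17 listed genes were tested with 0 called and a median of -0.13. Pla2g4a, the cytosolic phospholipase A2, had a log2 fold change of -0.23 (95% interval -0.997 to 0.545, edgeR adjusted p = 0.821), and its control mice alone ranged from 97.61 to 206.8 normalized counts. Acsl4, which activates arachidonic acid for storage in phospholipids, had 0.27 (95% interval -0.43 to 0.97, edgeR adjusted p = 0.762). Lpcat3, which places arachidonic acid into phospholipids, had 177.1, 189.3 and 158.5 normalized counts in control mice and 136.0, 146.8 and 102.9 in diseased-BWF1 mice. Its groups did not overlap, but it was not called (log2 fold change -0.45, edgeR adjusted p = 0.323). Mgll, which frees arachidonic acid from 2-arachidonoylglycerol in brain and other tissues, had 1 count in all libraries together. Of 5 other lipoxygenases none was tested, among them Alox12, the platelet-type enzyme, with raw counts of 2, 2 and 0 in control mice and 1, 0 and 1 in diseased-BWF1 mice.

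For the handling of cysteinyl leukotrienes 3 of 7 genes were tested and 0 called. Dpep2, a dipeptidase that can turn leukotriene D4 into E4, had 765.4, 975.2 and 1147 normalized counts in control mice and 1310, 1462 and 1255 in diseased-BWF1 mice. Its groups did not overlap, and its log2 fold change was 0.48 (95% interval 0.06 to 0.89, edgeR adjusted p = 0.307). Dpep2 overlaps 4 annotated genes and shares 4.4% of its 75-base stretches with others, so its counts are less certain. Mgst3, a microsomal glutathione transferase related to Ltc4s, had -0.62 (95% interval -1.59 to 0.35, edgeR adjusted p = 0.587). Mgst2 and Ggt5 had at most 4 counts in any library, those of Ggt5 being 0, 0 and 0 in control mice and 4, 2 and 2 in diseased-BWF1 mice. The 3 transport genes were tested and 0 called, with log2 fold changes of 0.06 for Abcc1, which exports leukotriene C4, 0.26 for Abcc4, which exports prostaglandins, and -0.29 for Slco2a1, which takes prostaglandins up.

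**Figure D4:**
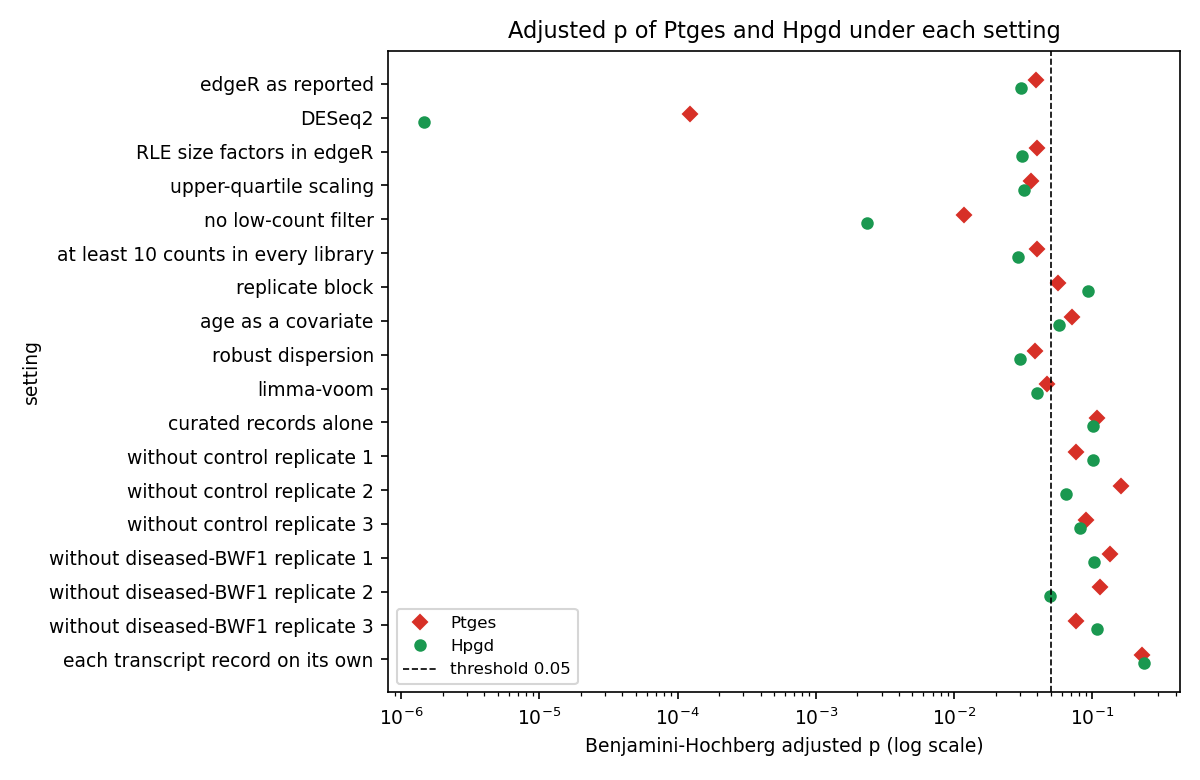
Benjamini-Hochberg adjusted p (log axis) of Ptges (red diamonds) and Hpgd (green circles) in the comparison as reported and under each alternative setting, with a dashed line at the threshold of 0.05. Ptges lies between 0.000123 with DESeq2 and 0.229 with each record tested on its own, and Hpgd lies between 1.475e-06 and 0.236 over the same settings.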

How the data were processed

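RNA of sorted PMs was extracted with TRIzol and sequenced as stranded paired-end mRNA libraries. The authors deposited 1 file per mouse with a whole-number read count for each of 107193 RefSeq records, without normalization. The submitters' processing notes name Salmon 0.8.0, DESeq2 and GRCm38.p6 with no role given. If Salmon gave these counts they are estimates, in which reads shared by transcripts are divided, and whether they were rounded is not given in the sources used here.

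Records were matched to genes by RefSeq accession (45749 with the same version, 40709 with another version, and 20735 unmatched and left out) and summed per gene. R 4.3.3, edgeR 4.0.16 (filterByExpr, TMM, estimateDisp, glmQLFit, glmQLFTest), DESeq2 1.42.0 and limma 3.58.1 were used, with no covariates. For genes under the filter an unfiltered fit of this model was read. Size factors were 0.871 to 1.21, and the common dispersion was 0.0543. Samples were grouped by their titles. The replicates are separate mice. Overlaps between genes come from GENCODE vM21. The code was tested on simulated data.

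The enzymes and the gene lists were chosen with earlier results of these data known. The genes named are the 10 enzymes, 20 pathway genes fixed by role and any further pathway gene called. Of the other lists, they are the most abundant gene or genes and any called gene. Genes named outside this rule are said to be. The alternatives were other tests, scalings, filters, covariates and records, and each mouse left out.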

Additional observations from a re-analysis of the deposited data

How the results depend on the processing

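Ptges kept its direction under all 17 alternatives and Hpgd under all 17, and the calls of both were lost in several. The log2 fold change of Ptges was 1.00 in the reported comparison (edgeR adjusted p = 0.0389), 1.004 with the replicate number as a block (adjusted p = 0.0564), 0.9986 with age as a covariate (0.0710), 1.005 with curated records alone (0.109), 1.004 with each record tested on its own (0.229) and 0.8992 to 1.123 with each mouse left out (0.0757 to 0.161). The number of enzymes called was 1, and it was 0 with the block, with age, with curated records, with each record and with any mouse left out. The number of other pathway genes called was 1, with 2 under DESeq2 and without the low-count filter, 0 with the block, age, curated records and each record, and 0 to 1 with a mouse left out. In the settings where Ptges was not called, 1 to 2 enzymes and 4 to 10 other pathway genes had an unadjusted p under 0.05. Over all genes 128 were called, against 369 with DESeq2, 259 without the filter, 84 with at least 10 counts in every library, 38 with the block, 19 with curated records, 13 with each record and 21 to 56 with a mouse left out. The enzymes that changed sign were not called under any setting, with ranges over the mice left out of -0.2273 to 0.07338 for Alox15, -0.02206 to 0.1763 for Alox5, -0.1366 to 0.0793 for Alox5ap and -0.4324 to 0.1178 for Ptgis. Deviations of same-numbered mice correlated at 0.00554 to 0.157, and the numbers name different animals. All Ptges counts lay on 1 curated record, so its own counts were unchanged with curated records alone and with each record. The causes of the lost calls were not tested. With 3 mice a group, 3629901 to 5003360 counts a library and a standard error of 0.14 to 0.33 on the log2 scale for the tested enzymes, smaller differences were not detectable, and Ptgs2 and Hpgds were too low to compare.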

Other observations

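Receptors for these lipids were read as well, as genes chosen after their values had been seen. Of 18 receptor genes 8 passed the low-count filter and 0 were called with edgeR or DESeq2. Ptger1, a PGE2 receptor, had 38.89, 31.89 and 17.23 normalized counts in control mice and 68.93, 42.53 and 68.58 among diseased-BWF1 animals, for a log2 fold change of 1.01 (edgeR adjusted p = 0.254), with groups that did not overlap. Cmklr1, a receptor for chemerin and resolvin E1, was far more abundant, with 2280, 1992 and 1826 in control mice and 2737, 2427 and 2787 in diseased-BWF1 mice, and it also had groups that did not overlap (log2 fold change 0.38, edgeR adjusted p = 0.314). Ptgir, the prostacyclin receptor, had a log2 fold change of 0.61 (edgeR adjusted p = 0.407), also with groups that did not overlap. The PGE2 receptors Ptger2 and Ptger4 had log2 fold changes of -0.47 and -0.14 and were not called. The receptor genes did not share a direction, with 4 above and 4 below 0.

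Most markers of other cells were low in these sorted PMs. The most abundant exception, Csf3r of the neutrophil list, had 764.4 to 1275 normalized counts. The range of summed normalized counts was 68.92 to 133.2 in control and 48.41 to 117.1 in diseased-BWF1 mice for mast cell markers, nearly all from Hdc. The most abundant B cell marker was Cd79a, with at most 11.48. Neutrophil markers summed to 1246 to 1297 and 794.7 to 1250, mostly Csf3r, while Ly6g, Mpo and Retnlg had 0 counts in every library. Eosinophil markers summed to 8.039 to 14.89 and 6.051 to 16.05, led by Il5ra, with Prg2 and Epx at 0. Dendritic cell markers summed to 34.75 to 41.34 and 30.26 to 51.93, led by Zbtb46. Platelet, mesothelial, fibroblast, and T and NK cell markers, led by Gp1ba, Lrrn4, Col1a1 and Cd3d, summed to at most 10.39 in any library.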
